A study of Mus musculus with 12 samples.

Results

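Arg1, Cd5l, Saa3, Fcna, Mrc1, Adgre1, Vsig4, C1qa, C1qb and Csf1r are genes that macrophages are known for, and their transcripts were followed here from normal thymus to thymic tumor. The 10 genes were picked with the difference between tumor and wild-type thymus already known, that is, they were chosen by the size of their tumor difference and by what they are known for. Their values in that comparison are a description: no p is given for them, and a count past the call threshold only describes them. On the array a gene is measured as a transcript cluster, and each of these symbols was taken from a cluster annotated with that symbol alone. They are 10 of 15223 distinct symbols and 10 of 17829 clusters, and each of the 10 had 1 such cluster.

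RNA from whole thymus or thymic tumor of female mice of the Sdl model was read on 12 Affymetrix exon arrays, 4 per group, each array holding a pool of 3 organs. Wild-type thymus (Mcm4 +/+) and pre-leukemic thymus (Mcm4 D573H/+) were both taken at 21 days. Tumors came from Mcm4 D573H/+ mice that were moribund. Mcm4 encodes a subunit of the helicase that opens DNA for replication, and D573H/+ mice carry the substitution in 1 copy. Genotype, age and disease all differ between tumors and wild-type thymus, and age and disease between tumors and the pre-leukemic group, and these cannot be told apart. No group holds a tumor-free organ of the tumors' age, and a pool averages its organs, so differences between single mice are not seen. The labels call the pools of a group biological replicates.

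Macrophages are phagocytes that take up dying cells, debris and old red cells. In the thymus they clear the many thymocytes that fail selection. They depend on signals through the CSF1 receptor, recognise targets through scavenger receptors, lectins and complement, and change their gene expression with the cytokines around them. Arginase, encoded by Arg1, is induced in mouse macrophages by interleukin 4 and is a usual marker of alternatively activated and tumor-associated macrophages.

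Values are the authors' normalized intensities on a log2 scale, so a difference of 1 is a doubling, and the levels of different genes rest on different probes and are not set against each other. A gene was called at a limma adjusted p under 0.05 over all 17829 clusters. Across genes, correlations between replicates were 0.983 to 0.996. Some arrays stood apart. Wild-type replicate 4 carried liver transcripts: Alb, encoding serum albumin, read 13.19 there and 6.10 to 6.70 on the other wild-type arrays, and the summed intensity of 5 hepatocyte genes reached 14312 in wild type but 332 to 807 on the pre-leukemic arrays and 370 to 464 in tumors. Pre-leukemic replicate 3 was the lowest of its group for 7 of 7 adipocyte genes, 10 of 10 fibroblast and mesothelium genes and 12 of 12 neutrophil genes. Pre-leukemic replicates 1 and 2 and tumor replicates 2 and 3 had the narrowest range of intensities. In bulk RNA of this kind, fewer cells of a type and less RNA per cell cannot be told apart, so the values below are transcript levels of the whole organ and not counts of macrophages.

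RefSeq promoter windows, 250 bases before to 50 bases after the gene's start on GRCm38.p6, were at hand for 6 of the 10 genes: Mrc1, Fcna, Cd5l, C1qb, Saa3 and Vsig4. The 4 that held a searched motif are printed in the direction of transcription to show what lies upstream of the genes described next, with the matched letters in capitals. They lie at chr3:87357631-87357930 on the plus strand (Cd5l), chr7:46715627-46715926 on the minus strand (Saa3), chr2:25627925-25628224 on the minus strand (Fcna) and chr2:14229164-14229463 on the plus strand (Mrc1).
Cd5l: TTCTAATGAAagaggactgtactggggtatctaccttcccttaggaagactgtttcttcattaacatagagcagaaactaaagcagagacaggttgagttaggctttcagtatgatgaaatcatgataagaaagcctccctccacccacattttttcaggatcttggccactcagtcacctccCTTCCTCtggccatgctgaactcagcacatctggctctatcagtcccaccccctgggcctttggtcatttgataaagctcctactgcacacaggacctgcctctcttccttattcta
Saa3: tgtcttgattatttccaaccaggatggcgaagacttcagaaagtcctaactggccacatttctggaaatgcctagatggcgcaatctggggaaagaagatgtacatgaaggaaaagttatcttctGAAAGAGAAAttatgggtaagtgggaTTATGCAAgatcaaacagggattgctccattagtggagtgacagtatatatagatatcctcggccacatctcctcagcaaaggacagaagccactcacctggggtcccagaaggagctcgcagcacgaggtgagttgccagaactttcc
Fcna: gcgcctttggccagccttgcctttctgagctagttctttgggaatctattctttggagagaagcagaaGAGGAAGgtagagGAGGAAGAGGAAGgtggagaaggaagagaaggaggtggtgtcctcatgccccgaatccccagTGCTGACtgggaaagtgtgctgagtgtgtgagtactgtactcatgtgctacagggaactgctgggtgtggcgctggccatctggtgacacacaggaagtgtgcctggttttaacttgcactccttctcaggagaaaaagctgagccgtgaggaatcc
Mrc1: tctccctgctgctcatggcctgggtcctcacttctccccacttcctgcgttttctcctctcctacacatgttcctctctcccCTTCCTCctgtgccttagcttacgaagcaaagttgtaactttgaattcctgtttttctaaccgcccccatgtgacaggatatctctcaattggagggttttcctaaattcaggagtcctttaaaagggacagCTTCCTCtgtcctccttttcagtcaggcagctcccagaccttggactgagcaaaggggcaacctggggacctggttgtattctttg
The letters searched on both strands were GAGGAAG for PU.1, the factor that myeloid cells need, TTGCNNAA for C/EBP, TGCTGAC for MAF, TGACTCA for AP-1, AGGTCA for nuclear receptors, GAAA followed after 2 bases by GAAA for IRF, and TTC followed after 4 bases by GAA for STAT6. The PU.1 letters were found in 3 of the 6 windows, against 13.6% of all 32851 windows. In Fcna they occur 3 times, starting at -182, -169 and -163 from the start site, the last pair sharing 1 base. In Mrc1 they are on the reverse strand at -168 and -36, and in Cd5l on the reverse strand at -67. Cd5l also holds the STAT6 letters at -250, which 6.95% of windows hold. Saa3 holds the IRF letters at -125 (3.44% of windows) and the C/EBP letters on the reverse strand at -99 (10.8%). The MAF letters lie at -107 in Fcna (4.67%). The AP-1 letters (5.20% of windows) and AGGTCA (16.3%) were in 0 of the 6. A match is only a description of the letters and no evidence of binding.

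Arg1, which encodes the arginase that splits arginine into ornithine and urea, was high in every tumor pool and low in every thymus pool. It read 6.10, 6.01, 6.28 and 6.98 on wild-type replicates 1 to 4, 6.44, 6.84, 6.20 and 5.98 on the pre-leukemic arrays, and 9.0, 8.92, 9.25 and 10.35 on the tumor arrays. The lowest tumor lay above the highest thymus, and tumor replicate 4 stood above the other tumors. Tumors exceeded wild type by 3.04 ± 0.33 (log2 difference ± SE, n = 4 arrays per group), an 8.20-fold difference and the 6th largest rise among the 15223 symbols, and exceeded pre-leukemic thymus by 3.01 ± 0.31. Hepatocytes also express Arg1, and it was highest of the wild-type arrays on replicate 4, the one with liver transcripts. Without that array the difference from wild type was 3.25 ± 0.32, and in the tumors Alb read 5.80 to 5.98. The part of liver transcripts in the Arg1 values was not tested.

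Cd5l encodes a secreted scavenger protein of tissue macrophages that protects them from death and binds lipids and microbes. It read 6.27, 5.91, 6.10 and 5.87 in wild type, 7.04, 7.47, 6.21 and 7.44 on the pre-leukemic arrays, and 9.28, 8.49, 9.83 and 9.44 in tumors. Pre-leukemic replicates 1, 2 and 4 lay between wild type and tumor, while replicate 3 fell within the wild-type range. Tumors exceeded wild type by 3.22 ± 0.25, a 9.32-fold difference and the 5th largest rise among all symbols, and exceeded pre-leukemic thymus by 2.22 ± 0.33, or 4.66-fold. Cd5l and Arg1 had the largest differences of the 10 genes, and their order changed with the arrays used: without wild-type replicate 4 Cd5l differed by 3.17 and Arg1 by 3.25.

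Saa3 encodes a serum amyloid A protein that mouse macrophages, fat cells and epithelia make in inflammation. It read 7.14, 7.38, 7.34 and 6.68 in wild type, 6.70, 6.58, 7.36 and 7.08 on the pre-leukemic arrays, and 9.06, 8.82, 10.78 and 10.88 in tumors. The tumors fell into a lower pair, replicates 1 and 2, and a higher pair, replicates 3 and 4, and all were above every thymus. Tumors exceeded wild type by 2.75 ± 0.47 (6.72-fold, the 12th largest rise) and pre-leukemic thymus by 2.96 ± 0.47 (7.76-fold). The highest tumor held 4.17 times the lowest.

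Vsig4 encodes a complement receptor of resident macrophages that binds C3 fragments. It read 6.44, 6.39, 6.18 and 6.40 in wild type, 6.47, 6.01, 5.37 and 6.77 on the pre-leukemic arrays, and 7.69, 6.80, 7.60 and 6.84 in tumors. Tumor replicates 2 and 4 were close to pre-leukemic replicate 4, but the groups did not overlap. Tumors exceeded wild type by 0.88 ± 0.21 (1.84-fold) and pre-leukemic thymus by 1.08 ± 0.32 (2.11-fold). In wild-type thymus Arg1, Cd5l and Vsig4 measured 6.34 ± 0.44, 6.04 ± 0.18 and 6.35 ± 0.11 (SD, n = 4). Clusters of olfactory receptors, whose products serve smell, give a rough idea of background, with a median of 4.71 and a 95th percentile of 6.84 over 758 clusters, so these 3 wild-type means lay within the range of such clusters and folds against wild type may be too small. On the pre-leukemic arrays Arg1 (6.37) and Vsig4 (6.15) were still below that percentile, Saa3 (6.93) lay just above it and Cd5l at 7.04. On tumor replicates 2 (6.80) and 4 (6.836) Vsig4 was also under that percentile (6.839).

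**Figure D1:**
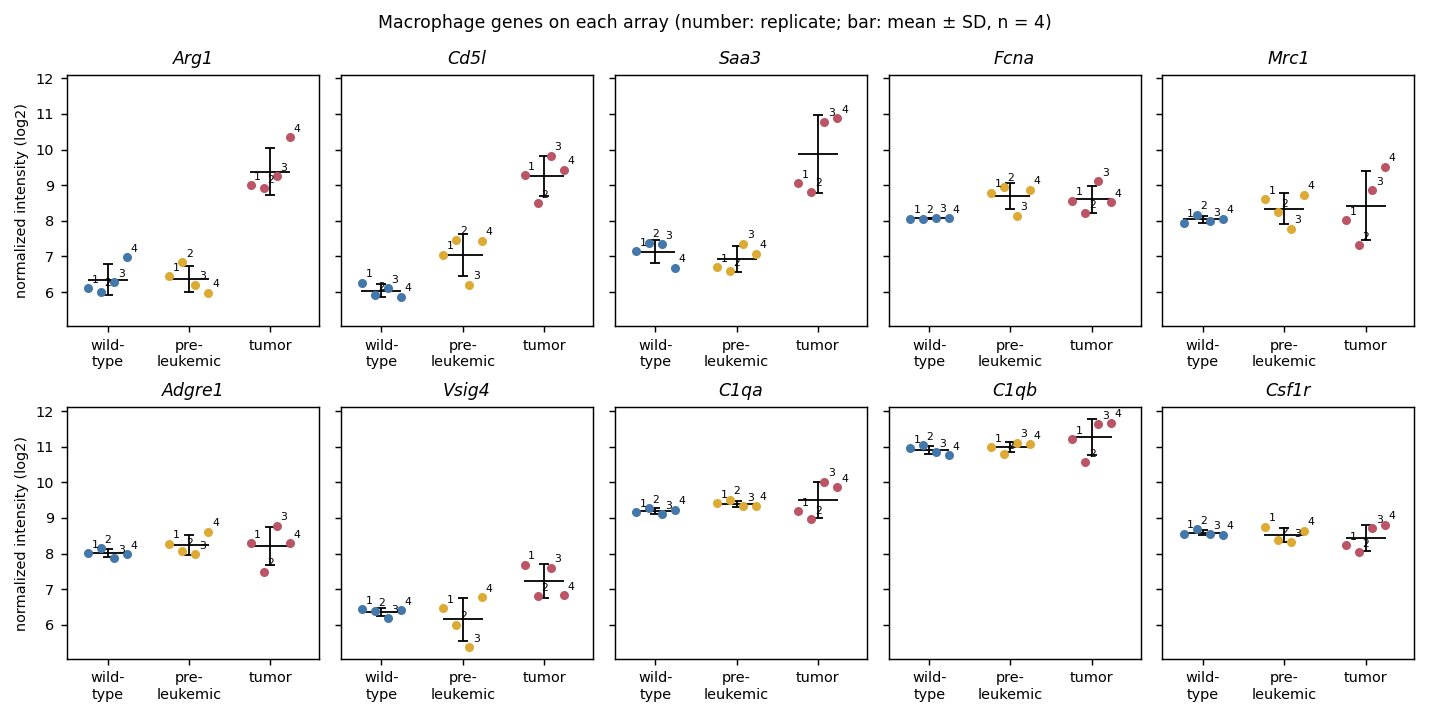
Normalized intensity (log2) of the 10 macrophage genes on each of the 12 arrays, with replicate numbers beside the points and bars for the mean ± SD of 4 arrays. Arg1, Cd5l, Saa3 and Vsig4 lie higher on all 4 tumor arrays than on all 8 thymus arrays, whereas the tumor points of Mrc1, Adgre1, C1qa, C1qb and Csf1r spread to both sides of the wild-type level.

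Fcna and Mrc1 encode lectins of the macrophage lineage. Fcna, whose product ficolin A binds sugars on microbes and starts the lectin pathway of complement, read 8.06, 8.06, 8.09 and 8.08 in wild type, 8.79, 8.95, 8.15 and 8.87 on the pre-leukemic arrays, and 8.56, 8.21, 9.11 and 8.52 in tumors. Wild-type pools were almost identical, and all 8 arrays from D573H/+ mice were higher, and the tumors overlapped the pre-leukemic arrays. The tumor difference was 0.53 ± 0.16 from wild type and -0.088 ± 0.22 from pre-leukemic thymus. Mrc1, the mannose receptor CD206, read 7.95, 8.17, 7.99 and 8.06 in wild type, 8.61, 8.24, 7.78 and 8.73 on the pre-leukemic arrays, and 8.01, 7.32, 8.86 and 9.52 in tumors. Tumor replicate 2 was the lowest of the 12 arrays and tumor replicate 4 the highest, a 4.59-fold span within 1 group and the widest of the 10 genes. The mean difference from wild type, 0.38 ± 0.40, was smaller than its error.

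The groups overlapped for the receptors that mark macrophages in general. Csf1r, the receptor for the growth factors CSF1 and interleukin 34, read 8.56, 8.69, 8.55 and 8.53 in wild type, 8.75, 8.38, 8.33 and 8.64 on the pre-leukemic arrays, and 8.24, 8.04, 8.71 and 8.81 in tumors. Its tumor difference was -0.13 ± 0.16 from wild type and -0.076 ± 0.18 from pre-leukemic thymus. Adgre1, an adhesion receptor of mature mouse macrophages, read 8.01, 8.14, 7.87 and 7.99 in wild type, 8.28, 8.08, 7.98 and 8.61 on the pre-leukemic arrays, and 8.30, 7.49, 8.78 and 8.30 in tumors. Adgre1 differed from wild type by 0.21 ± 0.23 in tumors. Adgre1 depended on the arrays used, with 0.45 ± 0.13 without tumor replicate 2 and 0.29 ± 0.085 without the 4 arrays of narrowest range, both past the call threshold, and 0.024 ± 0.20 without tumor replicate 3. Whether tumors held more macrophages was not measured, so the 10 are described as macrophage genes in tumors and no infiltrate is named.

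C1qa and C1qb encode chains of C1q, the first component of classical complement, which macrophages make. C1qa read 9.16, 9.28, 9.10 and 9.23 in wild type, 9.42, 9.51, 9.33 and 9.34 on the pre-leukemic arrays, and 9.19, 8.97, 10.02 and 9.86 in tumors. C1qb read 10.96, 11.04, 10.85 and 10.77 in wild type, 10.98, 10.80, 11.11 and 11.08 on the pre-leukemic arrays, and 11.22, 10.56, 11.63 and 11.67 in tumors. For both genes tumor replicates 3 and 4 were the highest of all arrays and tumor replicate 2 the lowest. The tumor difference from wild type was 0.32 ± 0.22 for C1qa and 0.37 ± 0.22 for C1qb. Like Adgre1, C1qb depended on the arrays used. It differed by 0.60 ± 0.13 without tumor replicate 2 and 0.54 ± 0.14 without the 4 arrays of narrowest range, both past the call threshold. Without tumor replicate 4 it differed by 0.23 ± 0.22. The gene of the third chain, C1qc, lies between them on chromosome 4 and was not called in tumors (limma, 0.045 ± 0.26, adjusted p = 0.914), with 9.23, 8.61, 9.92 and 9.83 in tumors against 9.17 to 9.50 in wild type.

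By the call rule, 5 of the 10 genes were called higher in tumor than in wild type (Arg1, Cd5l, Saa3, Fcna and Vsig4), where 16.2% of all clusters were called higher, and 0 were called lower, where 14.5% were. The same 5 had all 4 tumor arrays above all 4 wild-type arrays, as 18.3% of clusters did. Against pre-leukemic thymus 4 were called higher (Arg1, Cd5l, Saa3 and Vsig4; 7.74% of clusters were called higher), and the same 4 were separate (11.6%). These counts are not free of how the genes were picked and the comparisons share the tumor arrays, so nothing is read from them. Fcna was no longer called against wild type when any 1 wild-type array, tumor replicate 1 or tumor replicate 4 was left out (0.53 to 0.56), and Vsig4 no longer against pre-leukemic thymus without pre-leukemic replicate 1, 2 or 3 or tumor replicate 1, 3 or 4 (0.82 to 1.21). The fit on all 12 arrays did not call Fcna against wild type, the fit with the replicate number as a block did not call Vsig4 against pre-leukemic thymus, and without the 4 arrays of narrowest range neither Vsig4 nor Saa3 was called there.

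**Figure D2:**
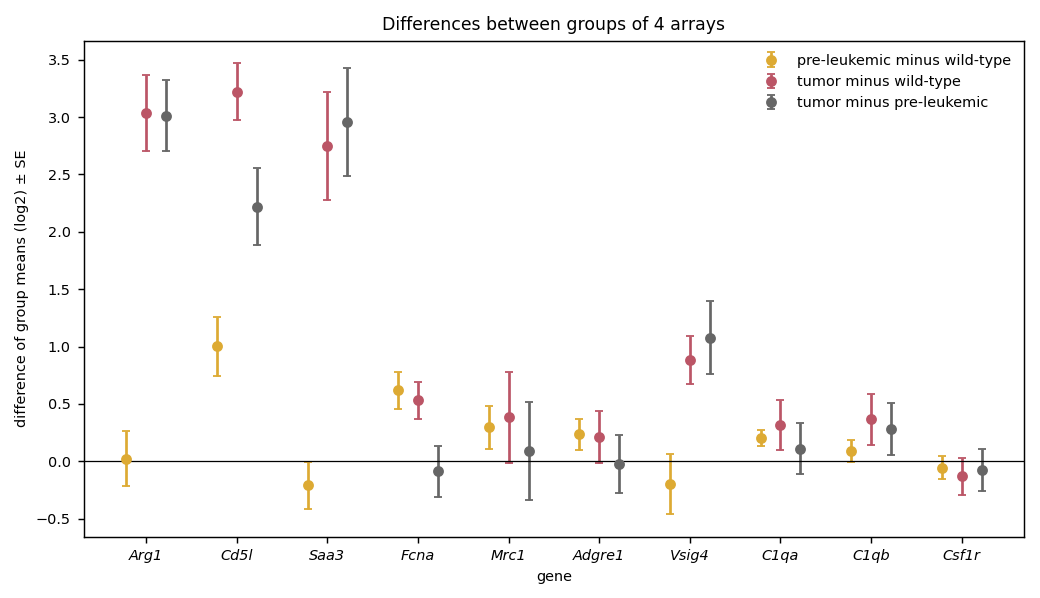
Difference of group means (log2, ± SE, 4 arrays per group) for the 10 genes in the 3 comparisons. Arg1, Saa3 and Vsig4 differ between tumor and both thymus groups by similar amounts, Cd5l has an intermediate pre-leukemic level, and Fcna differs between pre-leukemic and wild-type thymus (0.62) about as much as between tumor and wild type (0.53).

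The contrast between pre-leukemic and wild-type thymus, which the series' design names, asks whether these genes already differ in D573H/+ thymus at 21 days. It shares its 4 wild-type arrays with the comparison that was known when the genes were picked, so a low wild-type value enters both. Its counts and p for these genes are therefore not free of that choice. By limma 0 of the 10 genes passed, as did 0 of the 17829 clusters, or 0%. At an unadjusted p under 0.05 there were 3, Cd5l, Fcna and C1qa, against 1112 clusters (6.24%). Fcna and C1qa had all 4 pre-leukemic arrays above all 4 wild-type arrays, as did 3.65% of clusters, and 0 genes were separate in the other direction (0.78%). Cd5l differed by 1.00 ± 0.26 (limma adjusted p = 0.764), which was the largest positive difference among the 15223 symbols and was seen as a level above every wild-type array in 3 of 4 pools. Fcna differed by 0.62 ± 0.16 (limma adjusted p = 0.764), the 12th largest, and C1qa by 0.21 ± 0.071 (limma adjusted p = 0.764).

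The other 7 genes had limma adjusted p of 0.764 to 0.980 in this comparison. Mrc1 (0.30 ± 0.19) and Adgre1 (0.23 ± 0.13) were higher on average, C1qb (0.089 ± 0.093) and Arg1 (0.024 ± 0.24) were near the wild-type mean, and Saa3 (-0.21 ± 0.20), Vsig4 (-0.20 ± 0.26) and Csf1r (-0.055 ± 0.10) were lower. The median of the 10 was 0.15, beside 0.040 for all symbols, and 7 were positive, beside 62.5% of all symbols.

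Pre-leukemic replicate 3 was the lowest array of its group for 7 of the 10 genes (Cd5l, Fcna, Mrc1, Adgre1, Vsig4, C1qa and Csf1r), and 23.9% of all symbols were lowest there. It was also lowest for 10 of 19 core macrophage genes. The same array had the lowest adipocyte, fibroblast and neutrophil transcripts, with a mean log2 level of the 7 adipocyte genes of 7.31 against 8.82 to 9.54 on the other pre-leukemic arrays and 8.44 to 9.08 in wild type. Without it 1 cluster of the 17829 was called, and it was Fcna (0.80 ± 0.062, limma adjusted p = 0.0339). Cd5l then differed by 1.28 ± 0.14 (limma adjusted p = 0.0822). The part of tissue composition in these values was not tested.

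In tumors the 10 genes shared much of their order from pool to pool. Tumor replicate 2 was the lowest tumor for 10 of 10 genes, and 21.1% of all symbols were lowest there. Tumor replicate 4 was highest for 5 (Arg1, Saa3, Mrc1, C1qb and Csf1r), replicate 3 for 4 (Cd5l, Fcna, Adgre1 and C1qa) and replicate 1 for Vsig4. Of all symbols 18.4%, 27.1% and 23.1% were highest on replicates 4, 3 and 1. Averaged over the 10 genes, the tumors deviated from their own group means by -0.17, -0.66, 0.43 and 0.39 for replicates 1 to 4. Of 19 core macrophage genes that were no members, 15 were lowest on tumor replicate 2 and 9 each were highest on replicates 3 and 4. Tissue-resident and erythrocyte-clearing macrophage genes were also most often lowest on replicate 2 (7 of 14, against 4 on replicate 1). So were complement genes (6 of 11, against 2 on replicate 1). Other lists were more often lowest on replicate 1, where 33.3% of all symbols were lowest, so part of that order is shared by symbols in general. On replicate 2 the lowest were 4 of 12 lineage and CSF1 axis genes and 7 of 19 alternative activation genes, and on replicate 1 they were 7 and 9. Of 10 monocyte genes, 15 chemokines and growth factors and 12 neutrophil genes, 3, 4 and 0 were lowest on replicate 2. On replicate 1 these were 6, 9 and 6. Tumor replicate 2 was also among the arrays of narrowest range, and what that contributes was not tested.

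The spread between tumors was wide. The SD among tumors exceeded that among wild-type pools for 10 of 10 genes, as it did for 82.2% of all symbols. The median SD of the 10 genes was 0.52 in tumors, 0.36 on the pre-leukemic arrays and 0.11 in wild type, against 0.18, 0.17 and 0.091 over all symbols. Saa3 (1.10) and Mrc1 (0.96) had the largest SD in tumors, and Csf1r (0.37) and Fcna (0.37) the smallest of the 10.

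**Figure D3:**
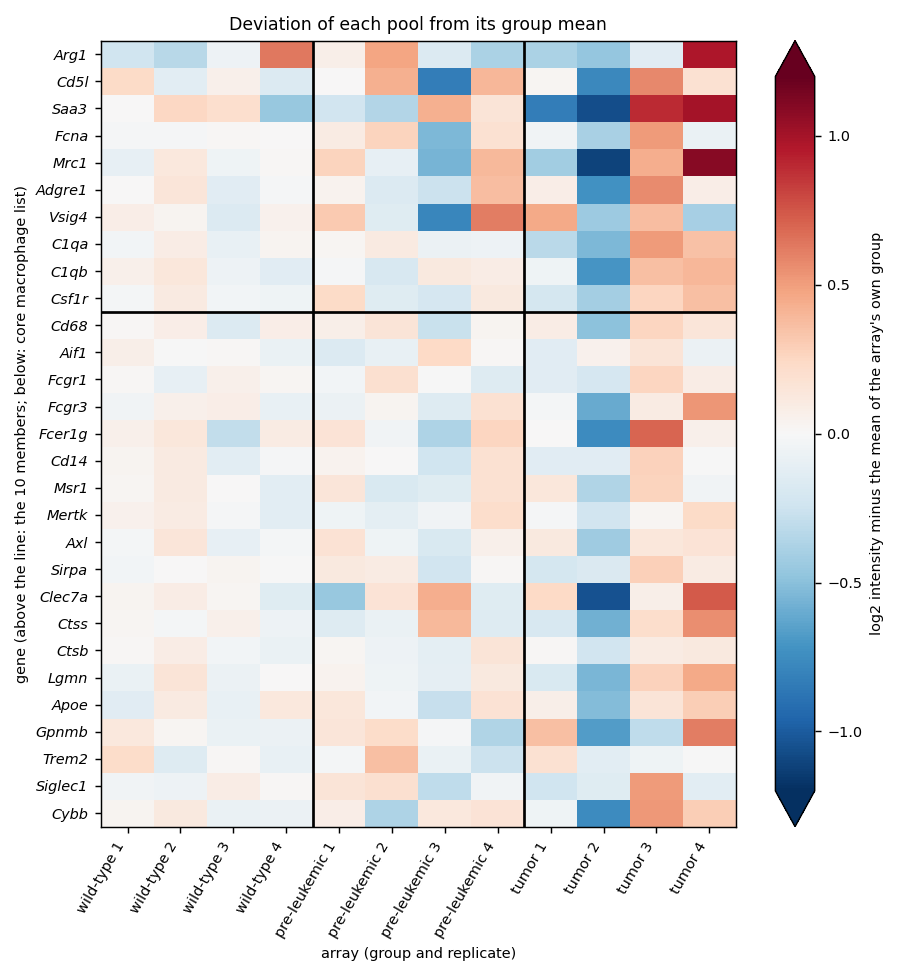
Deviation of each array from the mean of its own group (log2) for the 10 genes and the 19 measured core macrophage genes, blue for below and red for above the mean, with colours saturated beyond 1.2 either way. The column of tumor replicate 2 is blue for all 10 genes and for most of the core list, and pre-leukemic replicate 3 is the lowest array of its group for 7 of the 10.

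Likeness of pattern was measured as the root mean square distance between centred log2 profiles over the 12 arrays, for genes whose group means span at least 1. Distances were taken to 15222 other symbols, and predicted symbols and the other members of the 10 were then left out. Among the rest Fbp1 (0.339), an enzyme of gluconeogenesis, and the dopamine receptor gene Drd5 (0.434) were nearest to Arg1. Hmox1 (0.424), the enzyme that degrades heme, and the aldehyde dehydrogenase Aldh1b1 (0.451) were nearest to Cd5l. Nearest to Saa3 were the chemokine gene Ccl8 (0.501) and Drd5 (0.557), and nearest to Vsig4 were Olfml3 (0.200), an olfactomedin-like matrix protein, and Itgam (0.265), the integrin chain CD11b. Among the 10 genes themselves C1qa and C1qb were the closest pair (0.178), followed by Adgre1 with C1qb (0.222) and with C1qa (0.226). Arg1 and Csf1r were the farthest pair (1.53).

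Other genes of macrophage biology were taken in 9 lists by role, without the 10 genes, and 9 lists of markers of other cells, 196 measured genes of 240 listed. They were tested gene by gene in the same limma fits. In pre-leukemic against wild-type thymus 0 genes of the 18 lists were called. In tumor against wild type 16.2% of clusters were called higher and 14.5% lower, and the median difference over all symbols was 0.073.

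Core macrophage genes divided unevenly: 8 of 19 rose in tumors, 2 fell and 9 were not called, with a median of 0.32. Gpnmb, a glycoprotein of lipid-laden macrophages, rose from 6.27 ± 0.10 (SD, n = 4) to 8.59 ± 0.59, a 4.99-fold rise (limma adjusted p = 1.98e-04). Its tumor arrays read 8.95, 7.92, 8.28 and 9.20, all above the wild-type maximum of 6.39. Wild-type Gpnmb lay within the range of olfactory receptor clusters, as did that of Mmp12 and Ccl8 below, so their folds may be too small. Msr1, the class A scavenger receptor, rose 3.37-fold by 1.75 ± 0.13 (limma adjusted p = 2.93e-05), to 8.75, 8.26, 8.88 and 8.58 on tumor replicates 1 to 4. The falls were those of Axl (-0.69 ± 0.13, limma adjusted p = 0.00454), a receptor for apoptotic cells, and Aif1 (-0.28 ± 0.081, limma adjusted p = 0.0269), a calcium-binding protein of macrophages. The call of Aif1 was lost without wild-type replicate 1, 2 or 3 or tumor replicate 1 or 4 (-0.28 to -0.24), and then 1 gene of the list was called lower. The summed intensity of the 19 genes ran from 10947 to 12195 in wild type, from 10801 to 12892 on the pre-leukemic arrays and from 11204 to 17999 in tumors, so the lowest tumor lay within the thymus range.

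Genes of the lineage and of the CSF1 receptor axis were called lower only, with 0 of 12 higher, 5 lower and a median of -0.31. The 5 became 3 without wild-type replicate 2, 3 or 4 or tumor replicate 1 or 2, and 9 without the 4 arrays of narrowest range, and 1 gene was called higher without tumor replicate 1. Id3, a repressor of basic helix-loop-helix factors that thymocytes also express, fell by 1.21 ± 0.22 (limma adjusted p = 0.00292), and Spic, the factor of red pulp macrophages in spleen, fell by 0.68 ± 0.11 (limma adjusted p = 0.00149). Spi1, which encodes PU.1, read 8.28, 8.19, 8.56 and 8.49 in tumors and 8.24 to 8.57 in wild type, and the groups overlapped. Of 10 monocyte genes 1 rose (2 without wild-type replicate 2) and 2 fell (median -0.30). Plac8 rose by 1.47 ± 0.17 (limma adjusted p = 3.30e-04). Nr4a1, the factor of patrolling monocytes and also an early response gene of thymocytes, fell by 0.97 ± 0.10 (limma adjusted p = 1.64e-04). Ccr2, the receptor that brings monocytes out of marrow, fell by 0.79 ± 0.16 (limma adjusted p = 0.00463). It read 6.48 to 6.78 in wild type and 5.40 to 6.17 in tumors. All these arrays lay under the 95th percentile of olfactory receptor clusters (6.84), so the size of this fall is uncertain.

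Among 14 genes of tissue-resident and erythrocyte-clearing macrophages, 4 rose and 3 fell (median 0.084). Hmox1, named above as the nearest pattern to Cd5l, rose from 7.77 ± 0.049 to 10.27 ± 0.26 (5.66-fold, limma adjusted p = 3.91e-06). It read 8.18, 8.37, 7.83 and 8.15 on the pre-leukemic arrays, 0.36 ± 0.11 above wild type (limma adjusted p = 0.764), with replicate 3 again the lowest. Folr2, a folate receptor of resident macrophages, rose by 0.97 ± 0.21 (limma adjusted p = 0.00808), to 8.51, 7.99, 9.18 and 8.50. Gas6, the ligand of Axl and Mertk, fell by 1.78 ± 0.18 (limma adjusted p = 1.37e-04), and Timd4, a phosphatidylserine receptor of resident macrophages, fell by 1.00 ± 0.17 (limma adjusted p = 0.00201).

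Genes of alternative activation and arginine metabolism, the setting in which Arg1 is best known, were called in both directions, with 6 of 19 genes higher, 5 lower and a median of -0.16. Il10, an anti-inflammatory cytokine, rose by 2.18 ± 0.52 (limma adjusted p = 0.0114), reading 4.35, 6.35, 6.68 and 7.25 in tumors and 3.89 to 4.01 in wild type. The wild-type arrays and tumor replicate 1 lay below the median of the olfactory receptor clusters, so the size of this difference is uncertain. The matrix protease gene Mmp12 rose by 1.65 ± 0.42 (limma adjusted p = 0.0161). Retnla, a usual companion of Arg1 in alternatively activated mouse macrophages, fell by 2.97 ± 0.68 (limma adjusted p = 0.010). Its tumor arrays read 5.80, 5.37, 8.21 and 8.64, against 9.69 to 10.17 in wild type, so it was higher in the pools where Saa3 and Mrc1 were high. On the pre-leukemic arrays Retnla read 10.14, 10.17, 8.90 and 10.60, lowest on replicate 3, the array with the lowest adipocyte transcripts. Which cells account for its fall in tumors was not tested. Ccl22, a chemokine of dendritic cells and macrophages, fell by 2.95 ± 0.19 (limma adjusted p = 1.33e-05). The call of Il10 was lost without the 4 arrays of narrowest range (1.82). Tumor replicate 4 was the highest tumor for 11 of the 19 genes, and for 18.4% of all symbols.

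Of 11 further complement genes 3 rose and 3 fell (6 without tumor replicate 3), with a median of -0.14. The 2 largest rises were receptors: C3ar1, which senses C3a, rose by 2.02 ± 0.23 (limma adjusted p = 2.64e-04), and Itgam, which pairs with Itgb2 to bind C3 fragments, rose by 1.02 ± 0.14 (limma adjusted p = 6.35e-04). C3ar1 read 9.93, 8.89, 10.02 and 9.80 in tumors, with replicate 2 the lowest as for the 10 genes. C2 (-0.79 ± 0.16, limma adjusted p = 0.00570) and the regulator Cd46 (-0.67 ± 0.13, limma adjusted p = 0.00478) fell. Of 7 other serum amyloid and acute phase genes 0 rose and 2 fell, Orm1 (-0.94 ± 0.18, limma adjusted p = 0.00413) and Crp (-1.13 ± 0.23, limma adjusted p = 0.00567). A rise of 1 gene was called without tumor replicate 1 or 4. Wild-type replicate 4, the array with liver transcripts, was the highest wild-type array for both (Orm1 8.03 against 7.24 to 7.52, Crp 6.95 against 5.79 to 6.13). Both stayed called when any 1 array was left out (Orm1 -1.04 to -0.78, Crp -1.28 to -0.90). On every other array Crp lay under the 95th percentile of olfactory receptor clusters (6.84), so the size of its fall is uncertain. Of 12 scavenger receptors, lectins and relatives of the 10 genes, 1 rose and 4 fell (median -0.23). Scarb1, a lipoprotein receptor, rose by 0.53 ± 0.082 (limma adjusted p = 0.00143). Cd36, a fatty acid and scavenger receptor that fat cells and endothelium share, fell by 2.00 ± 0.23 (limma adjusted p = 3.06e-04), and Cd5, the thymocyte relative of Cd5l, fell by 1.56 ± 0.17 (limma adjusted p = 1.88e-04).

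Monocyte-attracting chemokines and growth factors gave 5 rises and 3 falls among 15 genes (median 0.16). Ccl8 read 7.40, 6.82, 10.10 and 10.71 in tumors, 5.60 to 6.55 in wild type, and rose by 2.90 ± 0.81 (limma adjusted p = 0.0242). It split the tumors into the same lower and higher pairs as Saa3. Its call was lost without wild-type replicate 1, 2 or 4 (2.81 to 2.83) or tumor replicate 3 (2.45). Ccl3 rose by 1.81 ± 0.18 (limma adjusted p = 1.36e-04). Ccl5, which T cells and macrophages make, fell by 3.04 ± 0.15 (limma adjusted p = 3.91e-06), and Cxcl12, a chemokine of stroma, fell by 1.94 ± 0.18 (limma adjusted p = 8.33e-05).

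Markers of other cells were mostly lower in tumors. Of 7 adipocyte genes 7 fell (median -1.91), among them Ucp1 (-4.66) and Adipoq (-2.66). Their summed intensity was 3184 to 5234 in wild type and 805 to 1247 in tumors. Of 11 dendritic cell genes 9 fell, 0 rose and the median was -0.75, with Ccr7 (-1.72) and Siglech (-1.65) as examples, and their sum went from 4009 to 4476 in wild type down to 1328 to 2235 in tumors. Of 12 neutrophil genes 8 fell (5 without wild-type replicate 1 or 2) and 0 rose, with a median of -0.52, led by Ngp (-2.73) and S100a8 (-2.45), with a sum of 2067 to 2364 in wild type and 1082 to 1369 in tumors. Falls were called for 4 of 7 B-cell genes (median -1.08), including Ms4a1 (-1.95) and Cd79a (-1.44), and for 5 of 8 genes of thymocytes and T cells (median -0.67), including Rag2 (-2.12) and Cd4 (-1.58), with 1 rise without tumor replicate 1. Endothelium gave 4 falls among 8 genes (median -0.44), Kdr (-0.90) and Emcn (-0.90) among them. The call of Emcn was lost without wild-type replicate 2 or 3 or tumor replicate 2 or 4 (-0.87 to -0.78).

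Among 10 fibroblast and mesothelium genes there were 4 falls and 1 rise (median -0.38). The falls numbered 2 without wild-type replicate 1, 2 or 4 or tumor replicate 1, 2 or 4, and 7 without the 4 arrays of narrowest range. Lum (-1.56) and Dcn (-1.13), proteoglycans of connective tissue, fell, and Pdgfrb, a growth factor receptor of pericytes that lies beside Csf1r on chromosome 18, rose by 2.39 ± 0.35 (limma adjusted p = 0.00107). Pdgfrb read 9.39, 9.26, 9.98 and 11.11 on tumor replicates 1 to 4, so replicate 2 was lowest and replicate 4 highest, as for Arg1. Of 9 genes of mast cells, basophils and eosinophils 0 were called, and 1 in each direction without tumor replicate 1. Mcpt8 differed by 0.33 (limma adjusted p = 0.127) and Tpsb2 by 0.22 (limma adjusted p = 0.245). Of 5 hepatocyte genes 0 were called. Alb differed by -2.17 ± 1.41 (limma adjusted p = 0.282) and Fgb by -0.89 (limma adjusted p = 0.360), with wild-type replicate 4 far above the rest. What these lower levels contribute to the values of the 10 genes was not tested.

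**Figure D4:**
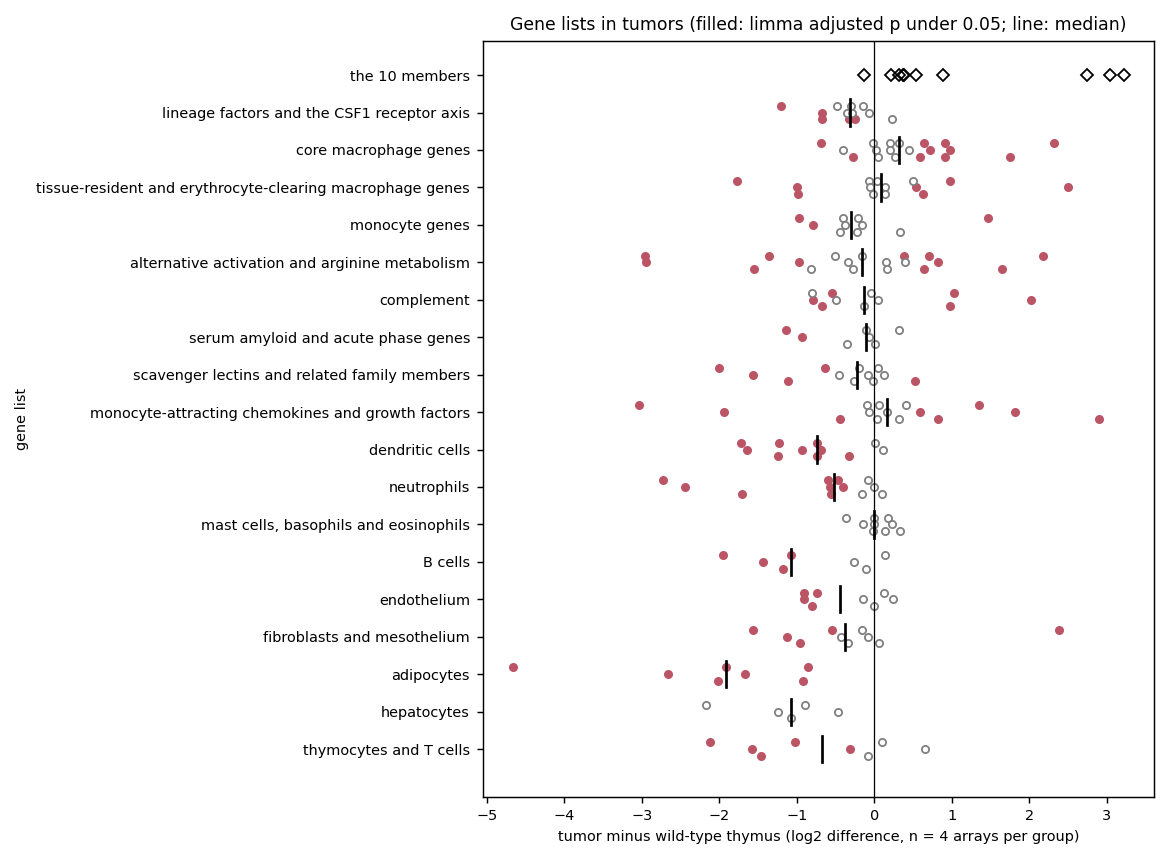
Difference between tumor and wild-type thymus (log2, 4 arrays per group) for the 10 genes (open diamonds, shown as values only) and each measured gene of the 18 lists, filled where limma called it, with a line at the list's median. Core macrophage genes have a median of 0.32 with points on both sides of 0, and all 7 adipocyte genes and 9 of 11 dendritic cell genes are filled points below 0.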

How the data were processed

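The deposited values are normalized intensities for 17829 transcript clusters on 12 arrays, and their linear scale was judged from the values. Which software and normalization made them is not given in the sources used here. Array medians lay between 186 and 210. A further 24 columns, whose pool names match no label, were not used. A microarray has no read depth, and the number of arrays limits the precision.

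Intensities were log2-transformed with no pseudocount and no filter on low values. For each comparison lmFit and eBayes of limma 3.58.1 (R 4.3.3) were run on its 8 arrays, two-sided, with Benjamini-Hochberg adjustment over 17829 clusters and calls at an adjusted p under 0.05. Every adjusted p in the text comes from these fits. The annotation gives 15618 clusters 1 symbol, 1370 several and 841 none. The cluster with the highest mean stood for a symbol. The fit was tested on simulated data.

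The 10 genes and the lists were chosen with earlier results of these data known. From each list the rule names up to 2 rises and 2 falls, those of greatest size among called genes in tumor against wild type. Where none was called it names the 2 genes of smallest p. It also names the 2 nearest patterns, predicted symbols and members left out, of each member whose group means span at least 1. C1qc, Spi1, Cd3e, Thy1, Ptcra, Apoa2 and Ttr were named after their values were seen. Alternatives were the replicate number as a block, quantile normalization, intensity plus 16, a minimum mean log2 of 6, a fit on all 12 arrays, an intensity trend, a posterior over 95% and leaving out arrays. Leaving out the 4 arrays of narrowest range was added after seeing the data. Promoter windows came from RefSeq.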

Additional observations from a re-analysis of the deposited data

Results flagged for a closer look

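Among 30 groups of 4 arrays, 10 genes in 3 groups, 1 held an array far from the others. Csf1r read 8.69 on wild-type replicate 2, and the next highest wild-type array read 8.56. The gap was 0.831 of the group's whole range, just above the critical value of Dixon's test. By chance about 5% of groups would hold such an array, and the whole wild-type range of Csf1r was small beside that of the tumors.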

How the results depend on the processing

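The counts of clusters and of the 10 genes called were recomputed under each alternative. In pre-leukemic against wild-type thymus leaving out 1 array gave 0 to 1 clusters and 0 to 1 of the 10 genes, and the other settings 0. In tumor against wild type leaving out 1 array gave 4177 to 5545 clusters and 4 to 7 of the 10 genes, against 5474 and 5. In tumor against pre-leukemic thymus it gave 1728 to 2606 clusters and 3 to 5 genes, against 2855 and 4. A posterior over 95%, computed from limma with a prior share of 0.01, left 886 clusters and 2 genes in tumor against wild type and 364 clusters and 1 gene in tumor against pre-leukemic thymus. The fit on all 12 arrays called 4290 clusters in the latter comparison, and without the 4 arrays of narrowest range, which leaves fewer samples, 853 clusters and 2 genes were called there. That setting also put Arg1 at 3.58 above pre-leukemic thymus. In pre-leukemic against wild-type thymus, small differences turned: Arg1 to -0.047 with quantile normalization and -0.25 without the 4 arrays of narrowest range, and Saa3 to 0.083 in the latter setting. Leaving out 1 array put Arg1 at -0.13 to 0.24, below 0 without wild-type replicate 1 or 2 or pre-leukemic replicate 2, Vsig4 at -0.40 to 0.062 and Csf1r at -0.13 to 0.010, both above 0 without pre-leukemic replicate 3. The causes were not tested. Replicate numbers are shared by the groups, and the labels do not say whether they pair the samples. Deviations of same-numbered arrays correlated at -0.55 to 0.42, so no pairing was evident. Values from 4 arrays per group cannot exclude one. With the replicate block 0, 4210 and 2063 clusters and 0, 5 and 3 of the 10 genes were called in the pre-leukemic, tumor against wild-type and tumor against pre-leukemic comparisons, Vsig4 being the gene not called in the last. Of 732 recomputed differences of named list genes 716 kept their direction and side of the threshold, 15 lost their call and 1 gained one. Of 576 recomputed list counts 519 stayed within 1.5 times. Core macrophage rises numbered 8 to 10 without 1 array and 3 at the posterior over 95%. Taking the mean of all clusters of a symbol was not run, since each of the 10 genes had 1. Among the 10 genes, weak signals limit Arg1 and Vsig4 in both thymus groups and Cd5l in wild type. There their means lie under the 95th percentile of olfactory receptor clusters, and Vsig4 was also under it on tumor replicates 2 and 4. Among list genes named for a fall, Spic, Cd46, Ms4a1, Ucp1, Kdr, S100a8, Ccr2 and Crp were under it on all 4 tumor arrays. Retnla, Ccl22, Ngp, Siglech, Cd79a, Orm1, Cxcl12, Lum and Timd4 were under it on at least 1 tumor array. The sizes of these falls are therefore uncertain.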

Other observations

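Chil3, a chitinase-like protein of alternatively activated mouse macrophages, and the iron exporter gene Slc40a1 were picked after their values were seen, because tumor replicate 4 stood apart for both. Chil3 read 5.23, 4.76, 4.92 and 8.37 on tumor replicates 1 to 4, against 6.13 to 6.52 in wild type. Slc40a1, which macrophages use to release iron from red cells, read 7.38, 7.02, 7.05 and 9.78 in tumors, against 7.77 to 8.06 in wild type. For both genes the other 3 tumors lay below every wild-type array, and Arg1 and Mrc1 were also highest in that pool. Chil3 lay under the 95th percentile of olfactory receptor clusters (6.84) in wild type and on those 3 tumors, so the size of that gap is uncertain.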
